A study of Mus musculus with 6 samples.

Results

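The genes described here are Trp53, which encodes p53, its regulator and target Mdm2, the p53 targets Ccng1, Sesn1, Zmat3 and Phlda3, and the stress genes Gadd45a, Gadd45b and Gadd45g. They were taken by gene symbol, and all 9 were found among the 25124 genes of the authors' deposited table. M1 samples (n = 3) were RAW264.7 cells, a mouse macrophage line, given lipopolysaccharide (LPS, a bacterial cell wall component) at 100 ng/ml and interferon-γ at 50 ng/ml. M0 samples (n = 3) were the same cells without either agent. All 6 samples came from a control line made with a plasmid encoding Cas9 and no guide RNA, for comparison with an E4BP4 knockout, and all grew in 25 mM glucose. The labels do not say whether that control line is 1 clone, how long treatment lasted, or whether replicates were separate cultures. Every p-value therefore reflects only how far these 6 samples scatter, and that scatter may be technical.

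p53 is a transcription factor that DNA damage and other stresses stabilise. It switches on genes for cell cycle arrest, repair, metabolic control and death, and it also switches on Mdm2, whose product marks p53 for degradation and so closes a feedback loop. The GADD45 proteins are small stress-induced proteins that bind partners such as PCNA, p21 and the kinase MAP3K4. Gadd45a is a p53 target, whereas Gadd45b is best known as a target of NF-κB, the factor that LPS activates in macrophages.

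Levels are in TPM, the read count scaled by transcript length and library, so they can be set side by side between genes. Reads assigned to genes numbered 15615639 to 20283180 per library. All 8 macrophage markers were expressed, with summed levels of 2594 to 2639 TPM in M1 and 2854 to 3091 TPM in M0. Of 26 markers of T, B, fibroblast, epithelial, endothelial, dendritic and erythroid cells, 2 (Dcn and Zbtb46) reached 1 TPM in any library. The 4 fibroblast markers summed to 1.18 to 1.52 TPM in M1 and 0.782 to 1.06 TPM in M0, and the 3 dendritic cell markers to 0.878 to 1.14 TPM in M1 and 1.37 to 1.64 TPM in M0. Their part in the results was not tested. The test was limma on log2(TPM + 1) over 11297 genes, called at a Benjamini-Hochberg adjusted p under 0.05. It called 80.2% of the tested genes, 18.7% higher and 61.5% lower in M1. The median log2 fold change over all tested genes was -0.31. After the TPM values had been rescaled by median-of-ratios factors, which brought that median to 0.00, 36.9% were called higher and 36.6% lower. "Rose" and "fell" below refer to the TPM scale. The value after rescaling stands beside each change of the 9 genes described, and beside only some changes of other genes. In RNA from whole cultures, fewer cells expressing a gene and less RNA per cell cannot be told apart.

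The stretches upstream of these genes are shown because p53 targets are defined by the sites p53 binds, and because genes with such letters near their start moved in both directions. RefSeq promoter windows of 300 bases (GRCm38.p6, the assembly that mm10 names) were available for 8 of the 9 genes, with a pair of windows for Sesn1, and Zmat3 had none. The p53 half-site (its 10-base consensus, searched on both strands) was found in the windows of 5 of the 8 genes, which were Trp53, Mdm2, Ccng1, Sesn1 and Gadd45a. By window, it was found in 5 of the 9 windows of these genes, for Sesn1 in the second window only. Of the 11161 windows of tested genes, 6.81% held it. The search was for single half-sites within these windows, so p53 sites elsewhere in the genes were not covered. The stretches below run from 200 bases before the annotated start to 20 bases after it, 5′ to 3′ on the gene's strand. Capitals mark p53 half-sites, a κB site (the 10-base NF-κB consensus) in Trp53 and a TATA box (TATAAA) in Gadd45b.
Mdm2, chr10:117710739-117710958, minus strand: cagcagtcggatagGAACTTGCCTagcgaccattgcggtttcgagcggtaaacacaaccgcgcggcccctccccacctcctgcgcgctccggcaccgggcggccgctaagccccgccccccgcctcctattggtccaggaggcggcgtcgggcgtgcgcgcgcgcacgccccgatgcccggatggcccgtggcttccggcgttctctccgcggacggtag
Gadd45a, chr6:67037388-67037607, minus strand: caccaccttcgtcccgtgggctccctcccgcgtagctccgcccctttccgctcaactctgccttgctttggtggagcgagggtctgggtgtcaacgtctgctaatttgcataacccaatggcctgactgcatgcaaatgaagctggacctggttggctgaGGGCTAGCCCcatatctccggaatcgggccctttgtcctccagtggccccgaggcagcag
Sesn1, chr10:41887239-41887458, plus strand: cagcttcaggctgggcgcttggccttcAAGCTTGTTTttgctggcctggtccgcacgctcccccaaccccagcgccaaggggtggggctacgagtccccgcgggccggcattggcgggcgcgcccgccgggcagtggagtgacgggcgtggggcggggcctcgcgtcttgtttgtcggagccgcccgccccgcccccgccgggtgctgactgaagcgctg
Trp53, chr11:69580159-69580378, plus strand: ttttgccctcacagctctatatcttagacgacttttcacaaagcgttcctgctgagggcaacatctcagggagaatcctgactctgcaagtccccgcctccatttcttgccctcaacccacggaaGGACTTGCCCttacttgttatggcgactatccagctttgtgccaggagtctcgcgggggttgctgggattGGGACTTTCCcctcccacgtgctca
Gadd45b, chr10:80929891-80930110, plus strand: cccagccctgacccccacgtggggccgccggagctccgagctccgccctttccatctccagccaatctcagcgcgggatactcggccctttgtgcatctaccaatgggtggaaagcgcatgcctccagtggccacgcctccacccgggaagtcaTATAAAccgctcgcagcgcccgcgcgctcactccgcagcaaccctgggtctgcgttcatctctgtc

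The half-site of Mdm2 began 186 bases before the start, that of Sesn1 173 bases, that of Trp53 75 bases and that of Gadd45a 40 bases before it. In Ccng1 the half-site, GGGCAAGCCT, began 185 bases before the start. The κB match in Trp53 began 5 bases before the start and shared its first bases with a CCAAT box on the other strand. The κB consensus was found in 1 of the 9 windows of these genes, that of Trp53, and not in that of Gadd45b. It occurred in 5.21% of the windows of tested genes. No window of these genes held the cyclic AMP response element TGACGTCA (3.20% of the windows of tested genes). A CCAAT box (CCAAT, either strand) was found in 7 of the 8 genes. By window that was 8 of 9, against 38.2% of the windows of tested genes. A TATA box lay 46 bases before the start in Gadd45b and 27 in Gadd45g. In Trp53 a match on the other strand, TTTATA, lay 248 bases before the start. With either strand counted, 6.85% of the windows of tested genes held a match. These are matches of letters, and nothing here measured binding.

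Of the 9 genes, 3 rose (Mdm2, Gadd45a and Gadd45b), 5 fell (Ccng1, Sesn1, Zmat3, Phlda3 and Gadd45g) and Trp53 was not called, where 18.7% of all tested genes rose and 61.5% fell. After rescaling, 4 were higher and 3 lower (36.9% and 36.6% of all tested genes), since Trp53 joined the higher genes and Ccng1 and Gadd45g were no longer called. In every one of the 9 the M1 and M0 samples did not overlap in TPM, as in 81.4% of all tested genes. Gadd45b and Mdm2 rose by at least 2-fold, as did 6.48% of tested genes (8.86% after rescaling). Phlda3 and Sesn1 fell by at least 2-fold, as did 11.3% of tested genes (5.97% after rescaling). These 4 genes passed that fold on both scales, and the other 5 did on neither.

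**Figure D1:**
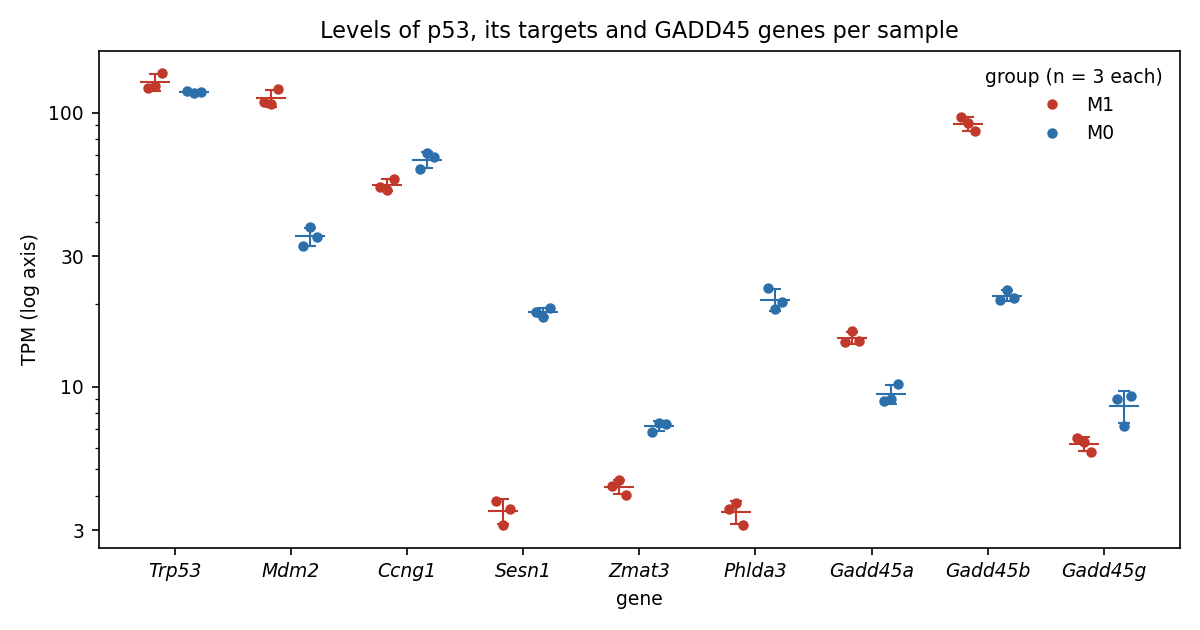
TPM (log axis) of each of the 9 genes in the 3 M1 samples (red, left) and the 3 M0 samples (blue, right), with the mean and SD as bars. Mdm2 spanned 108 to 122 TPM in M1 and 32.8 to 38.3 TPM in M0, whereas Sesn1 spanned 3.13 to 3.85 TPM in M1 and 17.9 to 19.4 TPM in M0.

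Trp53 (NM_011640, chromosome 11, 69580359 to 69591873, 11 exons) had 123, 125 and 139 TPM in M1 replicates 1 to 3, against 120.0, 118 and 119 TPM in M0 replicates 1 to 3. It was the most abundant of the 9 in both groups. M1 replicate 3 stood highest and the other M1 samples lay just above the M0 samples. The log2 fold change of 0.12 (SE 0.05) was not called (limma adjusted p = 0.060), and leaving out 1 sample at a time gave 0.06 (adjusted p = 0.20, without M1 replicate 3) to 0.15 (adjusted p = 0.035, called, without M1 replicate 1). After rescaling it was 0.46 (adjusted p = 1.0e-05). The M1 SD was 6.86% of the mean, more than the 1.64% that read counting alone gives. Of the 50-base stretches of the Trp53 transcript, 8.94% also occur in the pseudogene Trp53-ps, so a part of its reads could have been assigned to either.

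Mdm2 (NM_001288586, chromosome 10, 117688875 to 117710758, 12 exons), the ubiquitin ligase that restrains p53, had 109, 108 and 122 TPM in M1, against 32.8, 38.3 and 35.1 TPM in M0. Every M1 sample was 2.825 times or more the highest M0 sample. It averaged 113 ± 7.88 TPM in M1 and 35.4 ± 2.75 TPM in M0 (SD, n = 3 each), a 3.20-fold rise. Its log2 change was 1.65 (SE 0.07; limma adjusted p = 1.0e-09) and 1.99 after rescaling. In size it ranked 402 of 11297 from the highest change. The level rested on 5492 to 5607 reads per M1 library and 1397 to 1740 per M0 library.

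The ratio of Mdm2 to Trp53 is a value that library scaling does not touch. Mdm2 TPM stood at 0.887, 0.864 and 0.877 of Trp53 TPM in the M1 samples, against 0.273, 0.325 and 0.295 in the M0 samples. The mean M1 ratio was 2.94 times the mean M0 ratio, with SDs of 0.0112 in M1 and 0.0259 in M0. An exact two-sided permutation test gave p = 0.10, the smallest that 3 samples against 3 allow.

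The 4 other p53 targets were lower in M1 on the TPM scale, although Ccng1 lost its call after rescaling. Phlda3 (NM_013750, chromosome 1, 135766085 to 135769134, 2 exons), whose product is a pleckstrin homology domain protein that inhibits the kinase Akt, had 3.58, 3.77 and 3.13 TPM in M1, against 22.9, 19.2 and 20.4 TPM in M0. It fell 5.96-fold, with a log2 difference of -2.28 (SE 0.08 and limma adjusted p = 4.3e-10) and -1.98 after rescaling. That ranked 76 of 11297 from the lowest change. Its M1 level rested on 70 to 95 reads per library, the fewest of the 9 genes.

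Sesn1 (NM_001013370, chromosome 10, 41887439 to 41908436, 10 exons) encodes sestrin 1, a stress protein that holds back the growth kinase complex mTORC1. It had 3.85, 3.13 and 3.60 TPM in M1, against 18.8, 17.9 and 19.4 TPM in M0. The fall was 5.30-fold, with a log2 difference of -2.12 (SE 0.07 and limma adjusted p = 3.4e-10) and -1.82 after rescaling, and ranked 97 from the lowest. The deposited transcript starts 76865 bases downstream of the first RefSeq start of the gene, at the second start, whose promoter is printed above.

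Zmat3 (NM_009517, chromosome 3, 32334794 to 32365665, 6 exons) encodes a zinc finger protein that binds RNA. It had 4.36, 4.57 and 4.05 TPM in M1, against 6.85, 7.41 and 7.34 TPM in M0. Here the fall was smaller, 1.66-fold, with a log2 difference of -0.62 (SE 0.07 and limma adjusted p = 7.9e-06) and -0.33 after rescaling (adjusted p = 0.0014).

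Ccng1 (NM_009831, chromosome 11, 40748552 to 40755286, 6 exons) encodes cyclin G1, which brings the phosphatase PP2A to Mdm2. It had 53.6, 52.2 and 57.4 TPM in M1, against 62.5, 71.4 and 68.8 TPM in M0. The log2 difference of -0.31 (SE 0.06 and limma adjusted p = 0.00056) was about that of the median gene, and after rescaling it was 0.04 and not called (adjusted p = 0.53). Together the 4 targets summed to 65.4, 63.7 and 68.2 TPM in M1 and 111, 116 and 116 TPM in M0. Ccng1 made up 82.7 ± 1.28% of that sum in M1 and 59.1 ± 2.67% in M0 (SD, n = 3 each; exact two-sided permutation p = 0.10, the smallest possible).

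**Figure D2:**
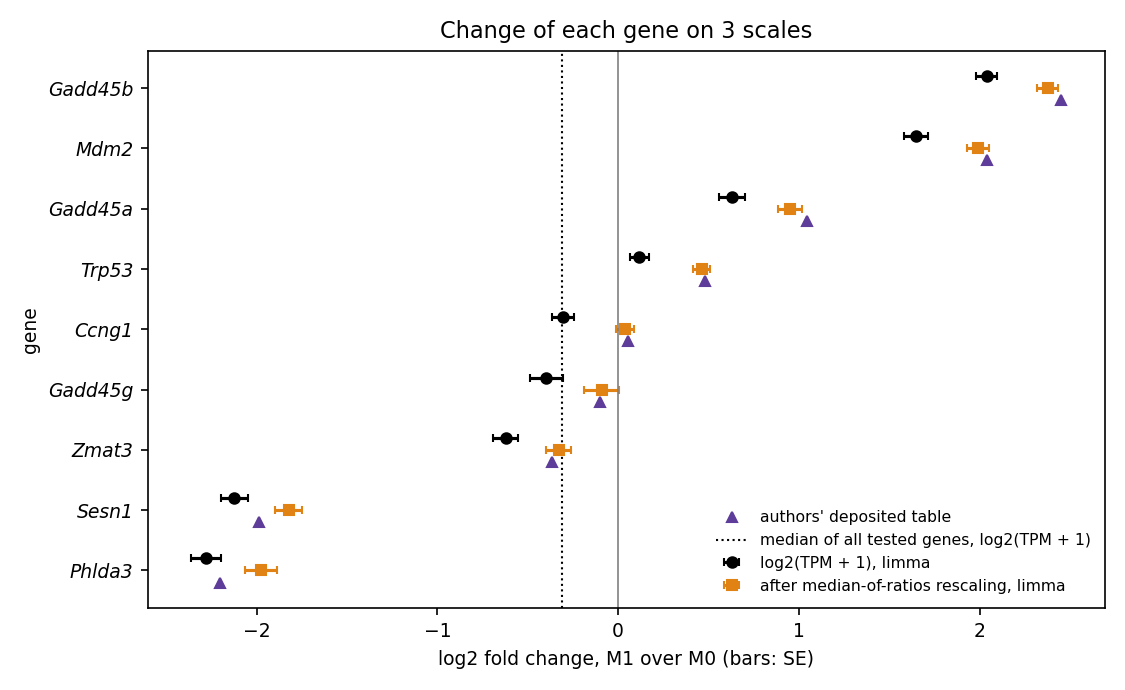
Log2 fold change of M1 over M0 for each gene from limma on log2(TPM + 1) (black, with SE), after median-of-ratios rescaling (orange, with SE) and in the authors' deposited table (purple). The dotted line is the median of all tested genes at -0.31, where Ccng1 and Gadd45g lie close by, while Gadd45b and Mdm2 lie far above it and Sesn1 and Phlda3 far below.

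The GADD45 genes did not move together. Gadd45b (NM_008655, chromosome 10, 80930091 to 80932204, 4 exons), known in mouse cells for damping JNK signalling downstream of NF-κB, had 96.4, 91.9 and 85.9 TPM in M1, against 20.8, 22.6 and 21.03 TPM in M0. Each M1 sample was 3.797 times or more the highest M0 sample. It averaged 91.4 ± 5.26 TPM in M1 and 21.5 ± 0.987 TPM in M0 (SD, n = 3 each), a 4.25-fold rise, with a log2 difference of 2.04 (SE 0.06 and limma adjusted p = 4.4e-11) and 2.38 after rescaling. It ranked 295 from the highest change of the 11297 tested genes.

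Gadd45a (NM_007836, chromosome 6, 67035096 to 67037407, 4 exons), the founding member of the family, had 14.5, 16.0 and 14.8 TPM in M1, against 8.92, 9.05 and 10.3 TPM in M0. It rose 1.60-fold, with a log2 difference of 0.63 (SE 0.07 and limma adjusted p = 6.8e-06) and 0.95 after rescaling. An antisense non-coding gene, E230016M11Rik, overlaps it by 809 bases, introns included, and averaged 2.55 TPM in M1 and 1.80 TPM in M0. Of the 50-base stretches of the Gadd45a transcript, 16.1% also occur in transcripts of E230016M11Rik, with either strand counted. No source used here says whether counting used strand, so reads in the overlap cannot be told apart.

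Gadd45g (NM_011817, chromosome 13, 51846675 to 51848474, 4 exons) had 6.49, 6.28 and 5.79 TPM in M1, against 9.05, 7.19 and 9.28 TPM in M0. It fell by 0.40 on the log2 scale (SE 0.09, limma adjusted p = 0.0018), whereas after rescaling the change was -0.09 and not called (adjusted p = 0.40), with the groups overlapping. M0 replicate 2 was the lowest M0 sample. The gene rested on 95 to 117 reads per M1 library and 117 to 153 per M0 library.

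Summed over the family, GADD45 levels were 117, 114 and 106 TPM in M1, against 38.8, 38.9 and 40.6 TPM in M0. Gadd45b made up 82.1, 80.5 and 80.7% of the family sum in M1, against 53.7, 58.2 and 51.8% in M0. The share of Gadd45a was 13.4 ± 0.904% in M1 and 23.9 ± 1.28% in M0, and that of Gadd45g was 5.49 ± 0.0485% in M1 and 21.6 ± 2.66% in M0 (SD, n = 3 each). For each of the 3 shares the groups did not overlap, and the exact two-sided permutation test gave p = 0.10, the smallest possible. These shares do not depend on library scaling.

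**Figure D3:**
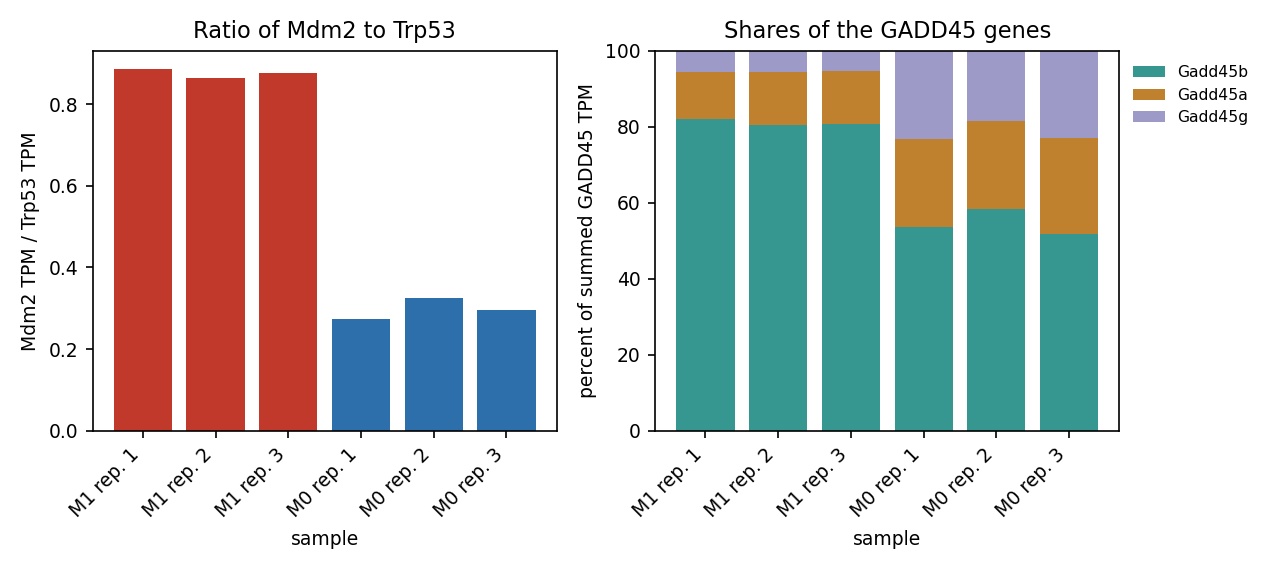
Left, Mdm2 TPM divided by Trp53 TPM in each sample, 0.864 or more in the 3 M1 samples (red) and 0.325 or less in the 3 M0 samples (blue). Right, the percent of the summed GADD45 TPM given by Gadd45b, Gadd45a and Gadd45g in each sample, with Gadd45b at 80.5% or more in M1 and 58.2% or less in M0.

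In order of level, the M1 samples ran Trp53, Mdm2, Gadd45b, Ccng1, Gadd45a, Gadd45g, Zmat3, Sesn1 and Phlda3. In that order only the last pair, Sesn1 and Phlda3, overlapped between neighbours. The M0 samples ran Trp53, Ccng1, Mdm2, Gadd45b, Phlda3, Sesn1, Gadd45a, Gadd45g and Zmat3. There Gadd45b overlapped with Phlda3, Phlda3 with Sesn1, Gadd45a with Gadd45g, and Gadd45g with Zmat3. Mdm2 and Gadd45b thus stood above Ccng1 in M1 and below it in M0.

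In the authors' deposited table, 7 of the 9 genes were called at an adjusted p under 0.05, 4 higher and 3 lower, against 22.9% and 20.7% of the 18744 genes with a fold change there. All 7 had the same direction and call after rescaling. In the authors' deposited table Trp53 had a log2 fold change of 0.48, Mdm2 2.04, Gadd45a 1.04 and Gadd45b 2.45. For Sesn1 the authors' deposited table gave -1.99, for Phlda3 -2.20 and for Zmat3 -0.37. Ccng1 at 0.05 (adjusted p = 0.47) and Gadd45g at -0.10 (adjusted p = 0.69) were not called in the authors' deposited table. That table lists another transcript than the TPM table for Trp53, Mdm2 and Sesn1.

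Among 31 tested genes of a list of 36 other p53 targets, 6 rose and 21 fell, against 11 higher and 13 lower after rescaling. Over all tested genes, 18.7% rose and 61.5% fell, against 36.9% higher and 36.6% lower after rescaling. The list median of -0.35 lay near the -0.31 of all tested genes, and after rescaling it was -0.01 beside 0.00. Cdkn1a, which encodes the cell cycle inhibitor p21, rose to 182 ± 7.87 TPM in M1, against 89.3 ± 0.895 TPM in M0, a log2 change of 1.02 (limma adjusted p = 2.6e-09). The death receptor gene Fas, also an interferon-responsive gene, had 154 ± 6.57 TPM in M1 and 4.38 ± 0.289 TPM in M0. The sestrin gene Sesn3 had 3.14 ± 0.216 TPM in M1 and 1.48 ± 0.105 TPM in M0. The falling genes with the smallest p were Epha2, Psrc1 and Siva1, lower on both scales. The receptor kinase gene Epha2 had 0.217 ± 0.0303 TPM in M1 and 3.40 ± 0.534 TPM in M0. The spindle gene Psrc1 had 3.79 ± 0.611 TPM in M1 and 14.7 ± 0.646 TPM in M0, and the pro-apoptotic Siva1 had 21.5 ± 1.86 TPM in M1 and 56.1 ± 3.90 TPM in M0.

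Of the apoptosis genes that p53 is best known to induce, Bax fell to 191 ± 7.76 TPM in M1, against 245 ± 3.95 TPM in M0, but its log2 change of -0.35 became -0.01 after rescaling and was not called there. Bbc3, which encodes PUMA, had 12.5 ± 1.16 TPM in M1 and 18.3 ± 0.231 TPM in M0 and was lower on both scales (log2 change -0.52, and -0.20 after rescaling). Other apoptosis genes of the list moved in both directions. Pmaip1 was lower on both scales (log2 change -1.05, and -0.72 after rescaling). Apaf1 (0.45, and 0.78 after rescaling) and Aen (0.40, and 0.71 after rescaling) were higher on both. Sesn2, the sestrin gene that responds to many stresses, had 13.1 ± 0.904 TPM in M1 and 12.9 ± 1.05 TPM in M0. It was not called on TPM (limma adjusted p = 0.77) and was higher after rescaling (log2 change 0.35).

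Among 21 tested regulators and relatives of p53, of a list of 24, 6 rose and 9 fell, against 12 higher and 8 lower after rescaling. The list median was -0.09, and 0.24 after rescaling. All tested genes had a median of -0.31 (0.00 after rescaling), with 18.7% higher and 61.5% lower (36.9% and 36.6% after rescaling). Daxx, a chromatin and cell death adaptor that binds Mdm2, reached 158 ± 8.28 TPM in M1, against 17.3 ± 0.78 TPM in M0. Hipk2 and Atm encode kinases that phosphorylate p53, and both rose. Hipk2 had 26.3 ± 0.809 TPM in M1 and 19.8 ± 1.21 TPM in M0, and Atm had 13.7 ± 1.11 TPM in M1 and 9.28 ± 0.788 TPM in M0. The checkpoint kinase gene Chek2 fell to 2.37 ± 0.108 TPM in M1, against 11.03 ± 0.654 TPM in M0, and Chek1 fell to 11.3 ± 0.128 TPM in M1, against 22.5 ± 0.96 TPM in M0. Ppm1d, a phosphatase that switches off the damage response, fell to 4.76 ± 0.491 TPM in M1, against 10.6 ± 0.456 TPM in M0.

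Mdm4, the partner of Mdm2 in restraining p53, rose to 69.7 ± 1.84 TPM in M1, against 60.0 ± 2.01 TPM in M0 (log2 change 0.21, limma adjusted p = 0.0013). Mdm4 was above Mdm2 in M0 and below it in M1. Cdkn2a, whose ARF product inhibits Mdm2, was listed at 0 in all 6 libraries. The p53 relatives Trp63 and Trp73 were at or below 0.077 TPM in every library.

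A list of 15 genes held partners and kinases of GADD45. It also held Ppp1r15a and Ddit3, which carry GADD names but are neither. All 15 were tested, and 3 rose and 11 fell, against 4 higher and 7 lower after rescaling, with a median of -0.45 (-0.15 after rescaling). Of all tested genes, 18.7% rose and 61.5% fell, and 36.9% were higher and 36.6% lower after rescaling. Map3k4, the kinase that human GADD45 proteins bind and activate, fell to 5.13 ± 0.611 TPM in M1, against 13.8 ± 1.18 TPM in M0. Downstream of it, Map2k6 fell to 0.749 ± 0.119 TPM in M1, against 4.18 ± 0.556 TPM in M0, and the p38 gene Mapk14 to 22.5 ± 0.77 TPM in M1, against 82.3 ± 2.96 TPM in M0. All 3 were lower on both scales. The rising genes were Ppp1r15a, also called Gadd34, a phosphatase subunit of the stress response (16.3 ± 0.594 TPM in M1 and 10.3 ± 0.235 TPM in M0), the JNK kinase Map2k4 (24.7 ± 2.80 TPM in M1 and 19.9 ± 0.236 TPM in M0) and Ddit3, also called Gadd153 (21.3 ± 1.76 TPM in M1 and 16.7 ± 2.11 TPM in M0).

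Of 10 tested transcription factors known to act on Gadd45 genes, 5 rose and 5 fell on both scales. The shares of all tested genes were 18.7% higher and 61.5% lower, and 36.9% and 36.6% after rescaling. The NF-κB subunit gene Nfkb1 reached 255 ± 19.2 TPM in M1, against 63.0 ± 4.37 TPM in M0, and Rela reached 94.3 ± 6.94 TPM in M1, against 42.6 ± 1.97 TPM in M0. Stat3 had 81.1 ± 8.10 TPM in M1 and 19.9 ± 0.565 TPM in M0. Those that fell with the smallest p were Brca1 (3.90 ± 0.513 TPM in M1 and 17.2 ± 1.07 TPM in M0), Smad3 (0.919 ± 0.189 TPM in M1 and 5.34 ± 0.128 TPM in M0) and Foxo3 (4.59 ± 0.229 TPM in M1 and 11.2 ± 0.829 TPM in M0). The list median was -0.14, and 0.18 after rescaling, beside -0.31 and 0.00 for all tested genes.

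**Figure D4:**
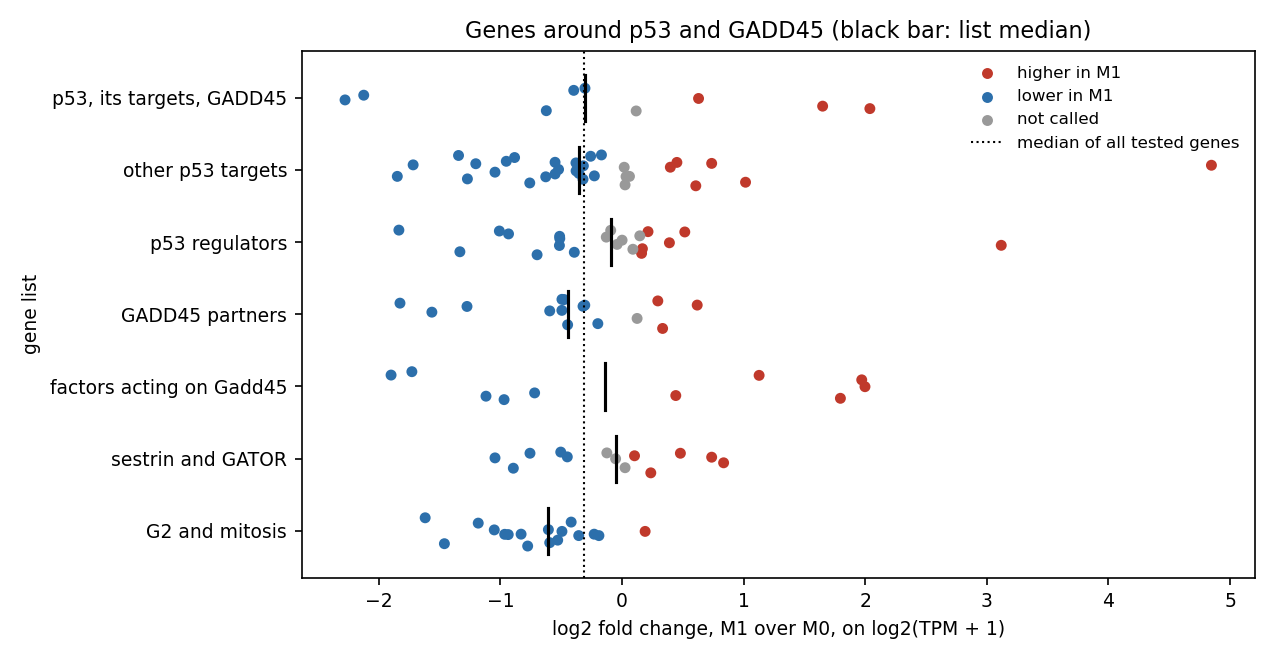
Log2 fold change of M1 over M0 on log2(TPM + 1) for every tested gene of the 9 genes described and of 6 lists around them, red where higher, blue where lower and grey where not called. Black bars are list medians, and the dotted line is the median of all tested genes at -0.31; the point at the far right is Fas.

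Sestrins act on mTORC1 through the GATOR complexes. Of 13 tested sestrin, GATOR and associated genes, 5 rose and 5 fell, against 8 higher and 4 lower after rescaling, with a median of -0.05 (0.28 after rescaling). In the whole set of tested genes, 18.7% rose and 61.5% fell (36.9% higher and 36.6% lower after rescaling). The median there was -0.31 (0.00 after rescaling). Seh1l, a GATOR2 and nuclear pore subunit, rose to 54.1 ± 0.761 TPM in M1, against 29.9 ± 1.78 TPM in M0, and Nprl3 of GATOR1 to 13.4 ± 0.245 TPM in M1, against 9.34 ± 1.14 TPM in M0. Of the other GATOR1 genes, Nprl2 fell to 8.08 ± 0.174 TPM in M1, against 14.4 ± 0.434 TPM in M0, and Depdc5 to 3.64 ± 0.407 TPM in M1, against 8.56 ± 0.562 TPM in M0. Rragc, a Rag GTPase, had 68.2 ± 4.55 TPM in M1 and 93.5 ± 2.11 TPM in M0 and was called lower on the TPM scale, not after rescaling.

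p53 lowers many G2 and mitosis genes through p21 and the DREAM repressor complex. Of 17 such genes and complex members, 16 fell and 1 rose, against 12 lower and 2 higher after rescaling, with a median of -0.61 (-0.26 after rescaling). Of all tested genes, 61.5% fell (36.6% were lower after rescaling), with a median of -0.31 (0.00 after rescaling). The transcription factor Mybl2 fell to 9.88 ± 0.726 TPM in M1, against 32.4 ± 1.03 TPM in M0. Among mitotic kinase genes, Plk1 fell to 30.3 ± 1.36 TPM in M1, against 63.9 ± 1.997 TPM in M0, and Aurkb to 29.8 ± 2.38 TPM in M1, against 68.8 ± 1.60 TPM in M0. Rbl1, which encodes the DREAM subunit p107, rose to 54.3 ± 3.04 TPM in M1, against 47.4 ± 1.28 TPM in M0. Rbl2, on the same list, fell to 3.64 ± 0.481 TPM in M1, against 11.8 ± 0.967 TPM in M0. Its log2 change was -1.46, and -1.16 after rescaling, called lower on both scales. E2f4, among the 16 that fell, changed its call with the scale. It was lower on TPM (log2 change -0.19, limma adjusted p = 0.0091) and higher after rescaling (0.15, limma adjusted p = 0.020).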

How the data were processed

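RNA of 3 M1 and 3 M0 samples was sequenced after poly(A) selection, per the labels' protocols. STAR 2.7.5a, HOMER 4.11.1, bcl2fastq, DESeq2 and the build mm10 are listed in the submitters' processing notes, without a role. The authors deposited a table of TPM values, per its headers. A second deposited table holds log2 values by sample (transform not stated) and the authors' comparison as a log2 fold change with raw and adjusted p-values. Its sign is M1 over M0, judged from the log2 columns.

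limma 3.58.1 (R 4.3.3; trend, robust) was fitted on log2(TPM + 1) to genes reaching 1 TPM in 3 samples or more, with group as the only term. Fold changes on that scale understate the change of low genes; a stated fold is the ratio of the groups' mean TPM. Exact permutation tests used scipy 1.17.1. TPM times transcript length came in whole steps of a fixed size within each library (within 0.1 of a step for 99.79% or more of values above 0), which gave reads; these cover counting error only. No replicate pair was alike within counting noise (chi-square from 1.54 to 7.55 for each degree of freedom). The fit was also run on simulated data in which few genes changed, in both directions. Most genes were called here, so that run does not bear on the choice of scale. Coordinates are those of the deposited table, in mm10. Exons and overlaps are from GENCODE M21, promoters from RefSeq (GRCm38.p6).

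The 9 genes and all lists were chosen with earlier results of these data known. From each list up to 3 called genes per direction with the smallest p were named, besides Cdkn1a, Bax, Bbc3, Mdm4, Cdkn2a, Map3k4, Trp63, Trp73, Sesn2 and Sesn3 whatever their values. Rbl2 was named as well, beside Rbl1, as were E2f4, and Pmaip1, Apaf1 and Aen beside Bax and Bbc3. The genes nearest to Phlda3 and a motif search are not reported here. Alternatives were 2 rescalings, another pseudocount, other filters, a replicate block, each sample left out, and reads in place of TPM.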

Additional observations from a re-analysis of the deposited data

How the results depend on the processing

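Median-of-ratios rescaling moved most: 4173 genes were called higher and 4131 lower, against 2111 and 6944 on TPM, and of the 9 genes 3 were called lower in place of 5. Under it the log2 change of Ccng1 turned to 0.04 without a call, Gadd45g lost its call and Trp53 was called higher. Of the changes of the 9 genes, 103 of 108 values under the alternatives kept direction and call. The other gains were in Trp53, with the replicate block and without M1 replicate 1. Equal library totals, a pseudocount of 0.1, no filter on low values and a filter of 5 TPM each left 3 of the 9 higher and 5 lower. Leaving out 1 sample at a time gave 3 to 4 higher and 5 lower. With reads in place of TPM, the difference between M1 and M0 in the ratio of Mdm2 to Trp53 was 0.9865, against 0.578, because reads are not divided by transcript length. Samples with the same replicate number shared little deviation (correlations of deviations 0.071, -0.076 and 0.037 for replicates 1 to 3). With so few samples, this does not settle whether they were paired. With the replicate block 4 of the 9 were higher and 5 lower, Trp53 being called at a limma adjusted p = 0.047. Depth limits Phlda3 and Gadd45g most, at 70 and 95 reads in their shallowest libraries.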

Other observations

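The tested genes nearest to 8 of the 9 were found by the Euclidean distance between log2(TPM + 1) values over the 6 samples, which weighs level and change together. Mdm2 lay nearest to Tor1aip1 (distance 0.157), a nuclear envelope gene at 107 TPM in M1 and 35.2 TPM in M0, and next to Rap2c (0.338). Gadd45b lay nearest to Zmynd15 (0.235) and Nmi (0.268), Nmi being an interferon-inducible gene at 97.3 TPM in M1 and 23.3 TPM in M0. Sesn1 lay nearest to Nfic (0.265) and to the leukotriene receptor gene Cysltr1 (0.354). For Trp53 the nearest were Laptm4a (0.141) and Dhx15 (0.149), for Ccng1 Matr3 (0.0786) and Lrp12 (0.0926), and for Zmat3 Rcor3 (0.145) and Mib2 (0.153). Gadd45a lay nearest to Trit1 (0.228) and Mir22hg (0.239), and Gadd45g to Gm11694 (0.222) and Wdr53 (0.227).

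Outside Trp53 and Gadd45a, few reads of the 9 genes could be shared with annotated copies. The transcripts of Ccng1, Sesn1, Phlda3, Gadd45b and Gadd45g held no 50-base stretch found in a transcript of another gene, that of Mdm2 held 0.459% and that of Zmat3 1.30%. The 3 GADD45 transcripts therefore shared no such stretch with each other. The promoter windows of these genes had a median of 24 CpG dinucleotides, against 21 in the windows of tested genes, and Trp53 had the fewest of them, 10.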
